A study of Mus musculus with 6 samples.

Results

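The 43 genes described here build and run the machinery that copies DNA in S phase. They were taken by name from a list of genes of origin licensing, the replication fork, the DNA polymerases, nucleotide supply and E2F control. The rule itself uses no measured value, but the list was chosen with earlier results of these data known. All 43 were found among the 20938 genes of the deposited table, and all 43 reached a mean of 1 FPKM over the 6 libraries and could be tested. FPKM divides a gene's fragments by transcript length and library size, so levels of different genes can be set side by side. The data are bulk RNA sequencing of whole tumours. B16F10 cells, a pigmented mouse melanoma line of the C57BL/6 strain, were placed subcutaneously in the left hind leg of male C57BL/6 mice aged 6 weeks, in 200 µL of saline, and tumour tissue was collected on day 19. There are 3 tumours labelled control and 3 labelled as overexpressing YKL-40, a secreted chitinase-like protein, and the labels list the genotype of all 6 as WT. Neither the vector of the controls nor the species, promoter or clone behind the overexpression is named. The mice kept their own immune system and stroma, so host cells share each tumour sample with the melanoma cells.

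Replication is prepared in G1, when the origin recognition complex, Cdc6 and Cdt1 load the ring of Mcm2 to Mcm7 onto DNA. In S phase this ring becomes an active helicase with Cdc45 and the GINS complex, and polymerases, the sliding clamp and a supply of nucleotides extend the new strands. Many of these genes share E2F sites in their promoters and are transcribed together around the start of S phase, which makes them a common readout of proliferating cells in tumour RNA. The series is titled as a study of YKL-40 and melanoma proliferation, and this group of genes bears on that question at the level of RNA.

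Some facts of the whole series touch every value below. The FPKM values of a library summed to between 468605 and 490955, and the read depth is unknown. The mouse gene of YKL-40, Chil1 in the table, was at 0.0644, 0 and 0.0242 FPKM in control libraries and at 0 in all 3 YKL-40-labelled libraries, so these values do not show the overexpression and the groups rest on the labels. Melanocyte markers were plainly present, with all 12 of the list tested and summed levels of 8847 to 10370 FPKM in control libraries and 8883 to 11087 in those labelled YKL-40. At an unadjusted p under 0.05 in limma, 1 of the 12 melanocyte markers was higher. Among all tested genes 8.71% were higher and 9.24% lower at this level, shares that apply beside each marker count here. Host cell markers differed between the groups. The 20 skeletal muscle markers summed to 54.3 to 214 FPKM in control libraries and to 6.42 to 35.4 in those labelled YKL-40, the 10 macrophage markers to 89.1 to 288 and 319 to 466, and the 13 T and NK cell markers found in the table to 0.995 to 2.53 and 11.1 to 42.6. The 10 fibroblast markers summed to 55.4 to 301 and 268 to 457 FPKM, and the 8 endothelial markers to 46.5 to 99.2 and 56.1 to 87.8. At the same level 13 of 14 tested muscle markers were lower, and 8 of 10 macrophage, 5 of 5 T and NK cell, 7 of 9 fibroblast and 1 of 8 endothelial markers were higher. In control libraries these 5 T and NK cell markers had means of 0.0524 to 0.397 FPKM. They reached the mean of 1 FPKM needed for testing only through the YKL-40-labelled libraries, so the filter largely fixed their direction. Some muscle markers, such as Actn3 (means of 3.91 and 0.244 FPKM), likewise passed only through the controls. No gene of these lists was at 0 in every library of a group, and the part of host cells in the results on replication genes was not tested. In such bulk samples, fewer dividing cells and less RNA per cell cannot be told apart.

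Most replication genes differed little in mean level between the groups. Of the 43 genes, 0 passed limma's test with p adjusted over all 11241 tested genes, where 0.436% of all tested genes passed, and 1 had an unadjusted p under 0.05. That gene was Gins3, a subunit of the GINS complex, which was lower in the YKL-40-labelled libraries. At this unadjusted level 0 of the 43 were higher and 1 was lower, against 8.71% higher and 9.24% lower among all tested genes. Differences are given as YKL-40-labelled minus control, in log2(FPKM + 1). Their median was -0.02 for the 43 genes and -0.04 for all tested genes, and 20 of the 43 differences were above 0. The differences ran from -0.41 for Gins3 to 0.38 for Slbp.

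With the spread taken as equal in both groups, most of these differences could be bounded. The standard errors ran from 0.08 to 0.27 and had a median of 0.13 in the 43 genes and of 0.13 in all tested genes. On the log2(FPKM + 1) scale, the 95% interval lay wholly within a 1.5-fold change in either direction for 40 of the 43 genes. The same held for 70.0% of all tested genes. The 3 exceptions were Gins3, Pole and Slbp. All 43 intervals lay within a 2-fold change on this scale. The scale understates changes of low genes. With a pseudocount of 0.01 the Orc1 difference was -0.27 (SE 0.15) instead of -0.21 (SE 0.12). Bounds in FPKM itself are therefore wider for such genes. The intervals use 1 spread for both groups. The SD was larger in the YKL-40-labelled libraries for 33 of the 43 genes (76.7%), against 57.2% of all tested genes. For such genes the intervals may be too narrow. These bounds apply to single genes, at the spread seen between 3 libraries per group, and do not show that the levels were equal.

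**Figure D1:**
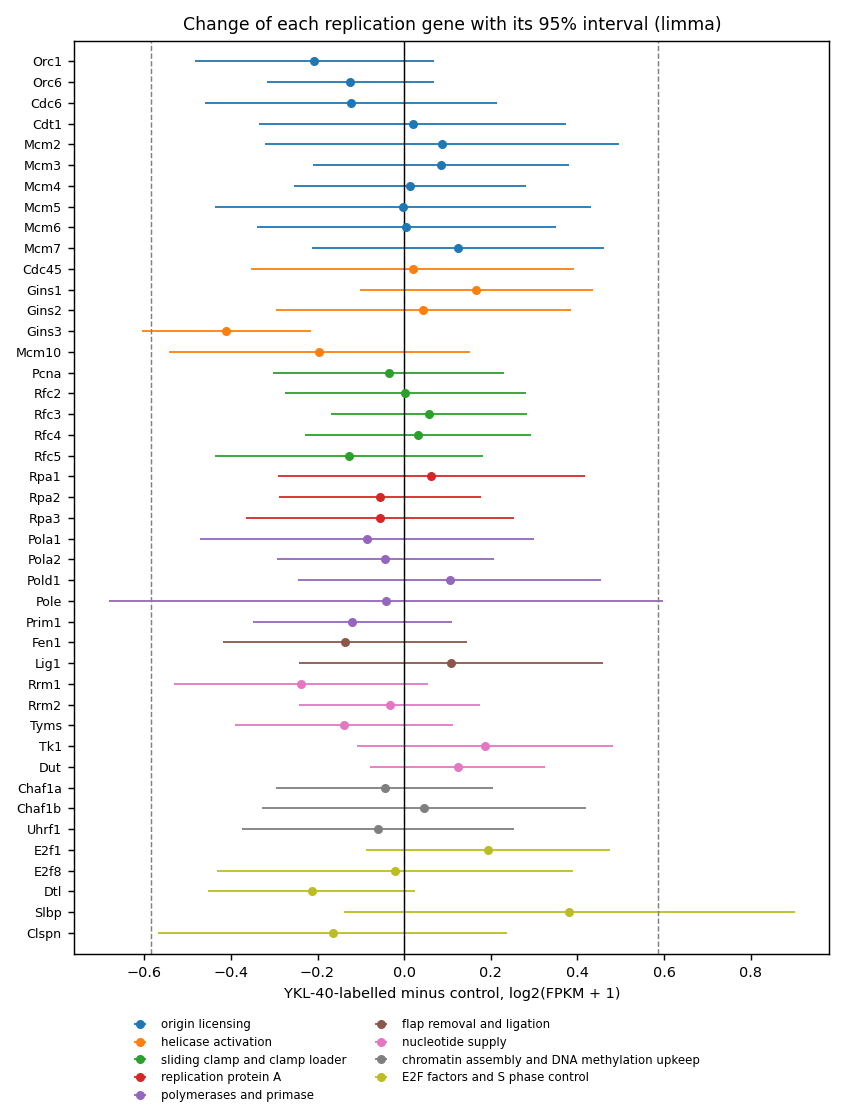
Difference between YKL-40-labelled and control libraries for each of the 43 genes on the log2(FPKM + 1) scale (points) with the 95% interval from limma (bars), coloured by role, with dashed lines at a 1.5-fold change. Only the Gins3 interval lies wholly on one side of 0, and those of Gins3, Pole and Slbp cross a dashed line.

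Part of these genes share E2F letters in their promoters, and the 4 promoters printed here show them. The letters searched were TTTCGCGC and TTTGGCGC, 2 forms of the E2F site, on both strands of the 300 bases from 250 before to 50 after each RefSeq gene start in GRCm38.p6. Other forms of the site were not searched, so a gene without a match may still hold one. The table held promoters of 38 of the 43 genes. A match was found in 12 of these 38 (31.6%), against 1.90% of the 9049 tested genes with a promoter, 0.929% of all 27025 genes with a promoter and 0.813% of all 32851 promoters. Those printed are the promoters with a match of the 4 genes of lowest p among the 12. They belong to Dtl, at chr1:191575495-191575794 on the minus strand, Orc1, at chr4:108579204-108579503 on the plus strand, Clspn, at chr4:126556730-126557029 on the plus strand, and Mcm7, at chr5:138171834-138172133 on the minus strand. Capitals mark the E2F match.
Dtl: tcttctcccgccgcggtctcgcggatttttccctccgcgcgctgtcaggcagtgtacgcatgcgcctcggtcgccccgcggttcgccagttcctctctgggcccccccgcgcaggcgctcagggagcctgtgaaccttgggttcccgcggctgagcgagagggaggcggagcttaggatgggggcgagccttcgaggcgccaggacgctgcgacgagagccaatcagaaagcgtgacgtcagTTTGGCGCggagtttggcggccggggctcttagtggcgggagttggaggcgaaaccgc
Orc1: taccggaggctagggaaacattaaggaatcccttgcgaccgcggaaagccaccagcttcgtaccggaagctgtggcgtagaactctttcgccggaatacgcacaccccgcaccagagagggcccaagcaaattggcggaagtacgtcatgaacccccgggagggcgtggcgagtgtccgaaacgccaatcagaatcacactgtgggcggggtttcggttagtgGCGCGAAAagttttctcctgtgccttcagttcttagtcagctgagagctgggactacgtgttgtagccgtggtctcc
Clspn: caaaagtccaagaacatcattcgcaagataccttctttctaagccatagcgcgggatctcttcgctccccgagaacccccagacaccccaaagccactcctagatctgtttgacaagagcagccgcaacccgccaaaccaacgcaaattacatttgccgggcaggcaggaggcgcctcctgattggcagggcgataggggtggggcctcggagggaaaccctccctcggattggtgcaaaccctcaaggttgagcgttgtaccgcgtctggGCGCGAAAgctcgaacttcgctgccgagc
Mcm7: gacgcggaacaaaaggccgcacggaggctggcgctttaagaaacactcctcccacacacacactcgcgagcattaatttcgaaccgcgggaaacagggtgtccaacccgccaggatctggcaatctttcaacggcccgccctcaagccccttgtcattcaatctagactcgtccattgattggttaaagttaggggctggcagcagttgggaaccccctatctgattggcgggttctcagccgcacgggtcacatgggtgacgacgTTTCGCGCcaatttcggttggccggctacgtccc

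The matches sit close to the gene start in these promoters. Counted from the start to the first base of the match, they lie at -8 in Dtl, -27 in Orc1, 21 in Clspn and 16 in Mcm7. In Orc1 and Clspn the letters are read on the opposite strand. The other 8 genes with a match were Cdt1, Mcm3, Mcm5, Mcm6, Rfc3, Pola1, Lig1 and Uhrf1. Mcm6 had 3 matches, at -110, -106 and -47, and Mcm5 had 2, at -153 and -149. The pairs 4 bases apart overlap each other on opposite strands.

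Mitosis genes, which peak later in the cycle, showed other shares of these letters. Of 22 mitosis genes with a promoter, 1 (4.55%) held the E2F letters, and that gene was Cdk1. TTTGAA, a form of the CHR element bound by the DREAM and MuvB complexes, was found in 17 of the 22 (77.3%), in 5 of the 38 replication genes (13.2%) and in 14.2% of the tested genes. CCAAT, the box bound by NF-Y, was found in 19 of the 22 (86.4%), in 25 of the 38 (65.8%) and in 43.4% of the tested genes. The promoter of Gins3, printed because Gins3 had the lowest p of all 43, held 0 matches to the E2F letters. It lies at chr8:95633309-95633608 on the plus strand, and capitals mark its CCAAT matches, of which the first is read on the opposite strand as ATTGG, and its TTTGAA match 28 bases before the start.
Gins3: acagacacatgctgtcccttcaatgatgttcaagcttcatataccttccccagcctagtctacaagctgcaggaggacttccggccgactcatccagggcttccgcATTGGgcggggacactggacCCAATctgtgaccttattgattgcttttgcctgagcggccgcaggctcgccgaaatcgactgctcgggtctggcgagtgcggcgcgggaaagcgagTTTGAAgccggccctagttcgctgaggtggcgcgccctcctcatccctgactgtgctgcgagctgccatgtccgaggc

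A match of letters is a description of the promoter and does not show binding of a factor in these tumours.

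**Figure D2:**
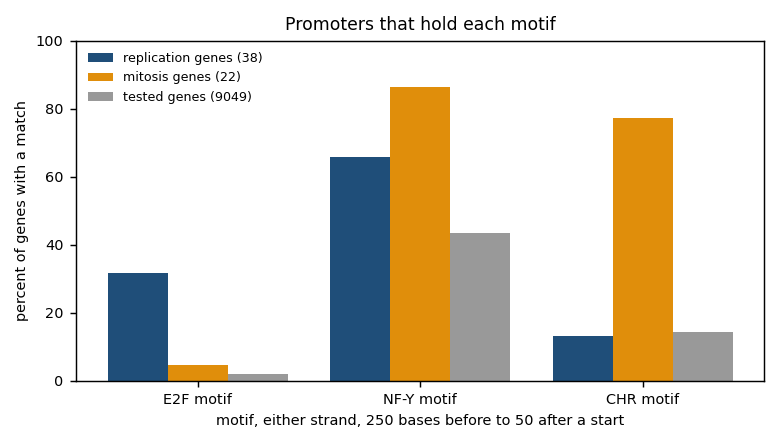
Percent of replication genes, mitosis genes and tested genes whose promoter holds the E2F, NF-Y (CCAAT) or CHR (TTTGAA) motif on either strand. The E2F motif was found in 31.6% of the replication genes and 4.55% of the mitosis genes, and the CHR motif in 13.2% and 77.3%.

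Origin licensing was represented by 10 genes, and 0 of them had an unadjusted p under 0.05. Orc1, the largest subunit of the origin recognition complex and the one that appears and disappears with the cell cycle, was the least abundant of all 43 genes. It had 3.65, 3.56 and 3.25 FPKM in control libraries and 3.11, 2.52 and 3.05 in those labelled YKL-40. All 3 YKL-40-labelled values lay below the controls, by a difference of -0.21 (SE 0.12, unadjusted p = 0.119, adjusted p = 0.399). Orc6, a small subunit of the same complex, was far more abundant, with 53.7 ± 1.84 FPKM in control libraries and 49.2 ± 1.59 in those labelled YKL-40 (mean ± SD, n = 3 libraries), and its groups did not overlap either. Part of the Orc6 value is uncertain, because 7.14% of its exon bases overlap Vps35 on the opposite strand and the library kit keeps no strand.

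The loading factors Cdc6 and Cdt1 were low beside the ring they load. Cdc6 ranged from 9.15 to 14.0 FPKM and Cdt1 from 7.96 to 12.2 over the 6 libraries, and both had their lowest value in YKL-40-labelled library 1. The differences between the groups were -0.12 (95% interval -0.46 to 0.22) and 0.02 (-0.34 to 0.37).

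The 6 subunits of the Mcm2 to Mcm7 ring, which assemble in equal numbers as proteins, were not equal as RNA. Mcm6 was the most abundant, with 68.0, 70.7 and 67.9 FPKM in control libraries and 54.5, 79.8 and 75.9 in those labelled YKL-40. The YKL-40-labelled values lay on both sides of the controls, and the group means were 68.9 ± 1.55 and 70.1 ± 13.6 FPKM, with a difference of 0.01 (95% interval -0.34 to 0.35). Mcm6 made up 25.1 ± 0.569% of the summed FPKM of the 6 genes in control libraries and 24.3 ± 1.01% in those labelled YKL-40. Mcm2, Mcm5 and Mcm3 followed at 18.2 ± 0.500%, 18.7 ± 1.29% and 17.5 ± 0.212% in control libraries, shares that overlap within their spread. Mcm7 stood at 11.4 ± 0.661% and Mcm4 at 9.08 ± 0.121%. Over all 6 libraries the share of Mcm6 stayed between 23.4 and 25.7% and that of Mcm4 between 7.93 and 9.51%. All 6 genes had their lowest value in YKL-40-labelled library 1, and all but Mcm4 had their highest in library 2.

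The spread was wider in the YKL-40-labelled group. Mcm2 had 50.5, 50.9 and 48.7 FPKM in control libraries but 40.6, 68.1 and 54.4 in the YKL-40-labelled libraries. Mcm5 had 48.6, 49.8 and 55.7 against 38.3, 65.4 and 53.4 FPKM. For both genes YKL-40-labelled library 1 was the lowest of the 6 and library 2 the highest. The differences between the groups were 0.09 for Mcm2, 0.08 for Mcm3, 0.01 for Mcm4, 0.00 for Mcm5 and 0.12 for Mcm7, each within 1 standard error of 0. Of the Mcm7 exon bases, 10.8% overlap Ap4m1 and 2.16% Cops6 on the opposite strand.

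Among the 5 genes of helicase activation, Gins3 stood apart. It had 29.5, 31.7 and 30.2 FPKM in control libraries and 22.8, 23.3 and 21.9 in those labelled YKL-40. Every YKL-40-labelled value was below every control, and the values were tight within each group. The difference was -0.41 (SE 0.08, 95% interval -0.61 to -0.22, unadjusted p = 0.00148, limma), which did not pass after adjustment over all genes (adjusted p = 0.0845). The YKL-40-labelled mean was 0.744 times the control mean. Over the other ways of processing that were tried the Gins3 difference stayed between -0.46 and -0.38. Its adjusted p in limma lay between 0.0130 with array quality weights and 0.863 with a covariate for muscle markers. The muscle fit called 0 of all tested genes, and muscle marker sums did not overlap between the groups. Gins3 lies on chromosome 8, 95633559 to 95645059 in mm10, and no annotated exon of another gene overlapped its exons.

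The other GINS subunits did not share the lower values of Gins3. GINS is a ring of 4 different proteins, each present once. Gins1 had 5.31, 5.81 and 5.58 FPKM in control libraries and 5.53, 6.59 and 7.06 in those labelled YKL-40, with a difference of 0.17 (95% interval -0.10 to 0.44). Gins2 ranged from 6.22 to 9.14 FPKM and differed by 0.04, but 70.7% of its exon bases overlap Gse1 on the opposite strand. Gins4, which is not among the 43 genes, differed by 0.12 (unadjusted p = 0.262). As a share of the summed FPKM of the 4 genes, Gins3 was at 47.4, 47.4 and 50.1% in control libraries and at 39.1, 39.3 and 38.8% in those labelled YKL-40. The shares of Gins1 and Gins4 did not overlap between the groups either, and both were higher in those labelled YKL-40. The 4 shares add up to the whole and are not independent of each other. These shares are a description, since Gins3 was singled out for its values. A share within a library does not depend on how libraries are scaled to each other. Cdc45, the partner of GINS on the helicase, had 13.0 ± 1.42 and 13.3 ± 2.78 FPKM, and Mcm10, which helps to activate the helicase, 18.8 ± 1.41 and 16.5 ± 3.39 FPKM.

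Pcna, the sliding clamp that holds polymerases on DNA, had 30.5 ± 2.08 FPKM in control libraries and 29.8 ± 3.60 in those labelled YKL-40, a difference of -0.04 (95% interval -0.30 to 0.23). The loader that places the clamp was again unequal between its subunits. Rfc2 was at 79.5, 83.7 and 80.0 FPKM in control libraries and at 71.1, 95.1 and 79.3 in those labelled YKL-40, the third of which lay just below the lowest control. Rfc5 had 13.8, 15.0 and 13.4 against 10.7, 15.0 and 13.0 FPKM, with a difference of -0.13 (unadjusted p = 0.364). Rfc3 stayed between 17.9 and 21.5 FPKM and Rfc4 between 10.6 and 13.2. For Rfc2, 19.1% of the exon bases overlap Lat2 on the opposite strand, and 13.4% of those of Rfc4 overlap Eif4a2, which was itself at 203 FPKM.

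Replication protein A coats single-stranded DNA as a complex of 3 subunits, and their RNA levels were far from equal. Rpa1 had 334, 250 and 259 FPKM in control libraries and 338, 285 and 256 in those labelled YKL-40, the highest level of the 43 genes. Rpa2 had 28.8, 28.9 and 27.3 against 24.6, 29.9 and 27.4 FPKM, and Rpa3 ranged from 6.41 to 8.56 FPKM. Values per gene depend on how transcripts were combined, which the sources used here do not give, and this was not tested for Rpa1. The differences between the groups were 0.06, -0.06 and -0.06, with all 3 intervals across 0. Rpa1 and Rpa3 were among the few genes that were not lowest in YKL-40-labelled library 1: Rpa1 was highest there.

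The polymerases included the gene that varied most between libraries. Pole, the catalytic subunit of the leading strand polymerase, had 114, 73.2 and 81.5 FPKM in control libraries and 57.1, 116 and 93.4 in those labelled YKL-40. Each group held a value above 100 FPKM, and the groups overlapped over most of their range. Its coefficient of variation over the 6 libraries, 26.1%, was the largest of the 43, and the interval of its difference ran from -0.68 to 0.60. Prim1, the catalytic subunit of primase, was much steadier, with 56.1, 60.8 and 57.2 FPKM against 48.5, 53.5 and 58.3 and a difference of -0.12 (unadjusted p = 0.262). Pola1 and Pola2, subunits of the polymerase that extends primers, had 47.1 ± 4.30 and 10.0 ± 0.196 FPKM in control libraries and 44.9 ± 9.61 and 9.74 ± 1.15 in those labelled YKL-40. Pold1, the catalytic subunit of the lagging strand polymerase, had 16.7 ± 0.865 and 18.3 ± 3.92 FPKM. All 5 of these genes were lowest in YKL-40-labelled library 1.

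Fen1, the nuclease that trims the flaps of lagging strand fragments, had 9.95, 11.1 and 10.4 FPKM in control libraries and 8.39, 11.1 and 9.09 in those labelled YKL-40. Annotated exons of the antisense gene Gm10143 cover 78.8% of its exon bases, so reads of the pair were not told apart. Lig1, the ligase that joins those fragments, had 60.9, 53.0 and 53.9 against 47.9, 69.1 and 66.1 FPKM. Its YKL-40-labelled libraries 2 and 3 lay above all controls and library 1 below them, and the difference was 0.11 (95% interval -0.24 to 0.46).

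Nucleotide supply held the steadiest gene of the 43. Rrm2, the small subunit of ribonucleotide reductase and the one whose level follows S phase, had 84.9, 77.4 and 80.3 FPKM in control libraries and 73.8, 81.0 and 82.2 in those labelled YKL-40, with a coefficient of variation of 4.85%. Rrm1, the large subunit, had 61.4, 62.9 and 54.4 against 42.8, 56.8 and 52.0 FPKM, with the groups overlapping and a difference of -0.24 (SE 0.13, unadjusted p = 0.0960, adjusted p = 0.364). Tk1, the thymidine kinase of the salvage pathway, had 37.4 ± 2.16 and 43.02 ± 6.40 FPKM, and its YKL-40-labelled libraries 2 and 3, at 47.9 and 45.4, were above every control. Dut, which removes dUTP, had 42.9 ± 2.60 and 46.8 ± 1.01 FPKM. Tyms, the thymidylate synthase, had 15.3 ± 1.25 and 13.8 ± 1.23 FPKM. Processed pseudogenes of Tyms and Pcna are annotated, and how reads shared with them were counted is not known here.

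All 3 chromatin genes were lowest in YKL-40-labelled library 1 and highest in library 2. Chaf1a, the large subunit of the histone chaperone that follows the clamp, had 47.3, 48.0 and 46.7 FPKM in control libraries and 42.0, 52.7 and 43.6 in those labelled YKL-40. Its controls spanned little more than 1 FPKM while the YKL-40-labelled values lay on both sides of them. Of the Chaf1a exon bases, 33.6% overlap Ubxn6 on the opposite strand. Chaf1b, the second subunit, had 15.5 ± 0.845 and 16.3 ± 3.56 FPKM. Uhrf1, which recruits the maintenance DNA methyltransferase to new DNA, had 26.5, 28.2 and 29.1 against 22.3, 31.8 and 26.9 FPKM.

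Among the regulators, E2f1, an activator of S phase transcription, had 9.11, 10.7 and 11.3 FPKM in control libraries and 11.0, 13.5 and 11.6 in those labelled YKL-40, with a difference of 0.19 (95% interval -0.09 to 0.48). E2f8, a repressor of the same family, had 6.27 ± 0.103 and 6.30 ± 1.72 FPKM. Dtl, the adaptor of the ubiquitin ligase that destroys Cdt1 in S phase, had 8.64, 7.47 and 8.38 against 6.47, 7.34 and 6.89 FPKM. Its groups did not overlap, and the difference was -0.21 (SE 0.10, unadjusted p = 0.0733, adjusted p = 0.324). Clspn, an adaptor of the replication checkpoint, had 11.0 ± 1.14 and 9.82 ± 2.51 FPKM.

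Slbp, which binds the stem-loop of histone messages, had 18.9, 9.95 and 17.8 FPKM in control libraries and 19.1, 18.7 and 21.8 in those labelled YKL-40. Control 2 was far below the other 5 libraries, which lay between 17.8 and 21.8 FPKM. The difference of 0.38 (SE 0.22, unadjusted p = 0.128) was the highest of the 43 genes and became 0.11 without control 2. It was 0.71 with array quality weights and 0.82 (adjusted p = 0.863) with a covariate for muscle markers.

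**Figure D3:**
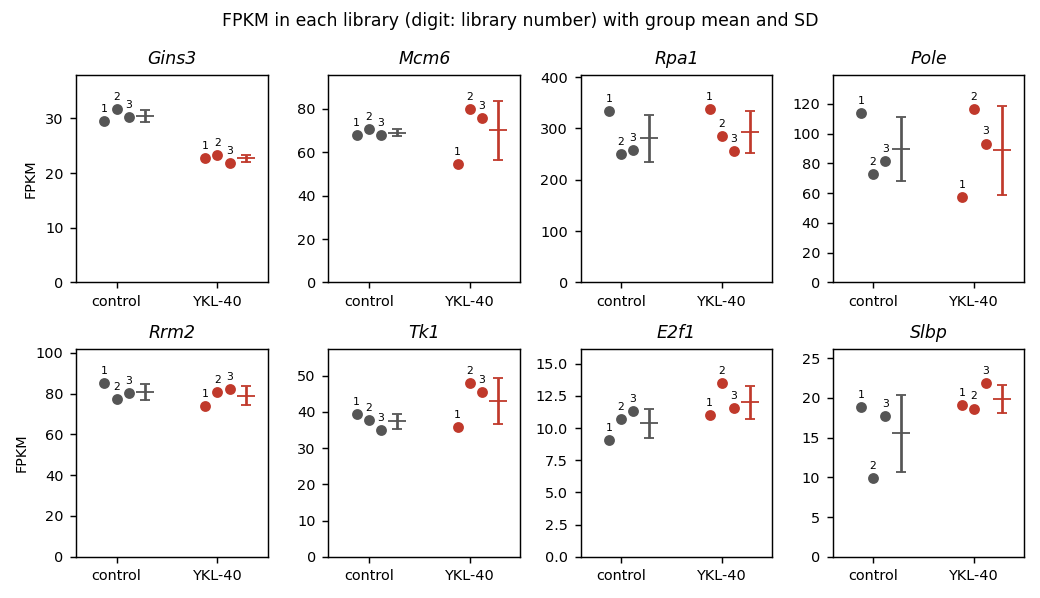
FPKM of 8 of the genes in each library (points, with the library number above) with the group mean and SD beside them. Gins3 alone has groups that do not overlap, Mcm6 spreads widely only in the YKL-40-labelled group, and control 2 lies far below the rest for Slbp.

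Few of the 43 genes had groups that did not overlap. All YKL-40-labelled values lay below all controls in 4 genes, Gins3, Orc1, Orc6 and Dtl, where 14.2% of all tested genes did so. In 0 of the 43 did they all lie above, against 10.3% of all tested genes.

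The clearest pattern lay within the YKL-40-labelled group. YKL-40-labelled library 1 had the lowest value of the 6 libraries in 31 of the 43 genes (72.1%), against 29.0% of all tested genes. YKL-40-labelled library 2 had the highest value in 24 of the 43 (55.8%), against 14.4% of all tested genes. Both held at once for 21 genes (48.8%), and for 5.86% of all tested genes. These 21 were Cdt1, Mcm2, Mcm3, Mcm5, Mcm6, Mcm7, Cdc45, Mcm10, Pcna, Rfc2, Rpa2, Pola1, Pola2, Pold1, Pole, Lig1, Chaf1a, Chaf1b, Uhrf1, E2f8 and Clspn. They came from 8 of the 9 roles, and 0 of the 5 nucleotide supply genes were among them. Genes of the related lists shared the low values of library 1 in part, with 11 of 15 further S phase chromatin genes (73.3%) and 17 of 34 further replication genes lowest there. Of the same lists, 2 (13.3%) and 7 (20.6%) were highest in library 2. Of 20 further nucleotide supply genes 9 (45%) were lowest in library 1 and 3 (15%) highest in library 2. Of 16 further E2F and pocket protein genes 7 (43.75%) were lowest in library 1 and 4 (25%) highest in library 2. Of the 12 melanocyte markers, 5 (41.7%) were lowest in library 1 and 5 (41.7%) highest in library 2. The difference of these lists from the 43 genes was not tested. Replication genes are regulated jointly, and the 21 do not count as independent evidence.

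The mean log2(FPKM + 1) of the 43 genes was 4.68, 4.64 and 4.62 in control libraries and 4.44, 4.78 and 4.66 in those labelled YKL-40. The YKL-40-labelled group held both the lowest and the highest of the 6 means, and its SD was 0.17 against 0.03 in control libraries. In 33 of the 43 genes (76.7%) the SD was larger in the YKL-40-labelled libraries, which was so for 57.2% of all tested genes. From library 1 to library 2 the median gain was 0.36 for the 43 genes and 0.04 for all tested genes. The gain was of similar size in the mitosis genes (0.34), the melanocyte markers (0.36) and the macrophage markers (0.34). It was larger in endothelial (0.51) and muscle markers (0.76), and 0.00 in the G1 genes. The further S phase chromatin (0.27), replication (0.19), nucleotide supply (0.13) and E2F and pocket protein genes (0.11) gained less. Fibroblast markers (-0.40) and T and NK cell markers (-1.07) were lower in library 2. Library 1 deviated most in the polymerases and primase, by -0.31 from their mean over the 6 libraries, followed by -0.25 in both the chromatin genes and those of flap removal and ligation and by -0.24 in the licensing genes, while replication protein A deviated by 0.05.

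A minority of 12 genes did not have their lowest value in YKL-40-labelled library 1, namely Orc1, Orc6, Gins1, Gins2, Gins3, Rfc3, Rpa1, Rpa3, Tk1, Dut, E2f1 and Slbp. Orc1, Orc6, Rpa1, Rpa3 and Slbp were even higher in library 1 than in library 2. The E2F letters were found in 9 of the 19 promoters held for the 21 genes that were lowest in library 1 and highest in library 2 (47.4%), and in 3 of the 19 held for the other genes (15.8%). This division of the genes was made after their values were seen and was not tested.

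**Figure D4:**
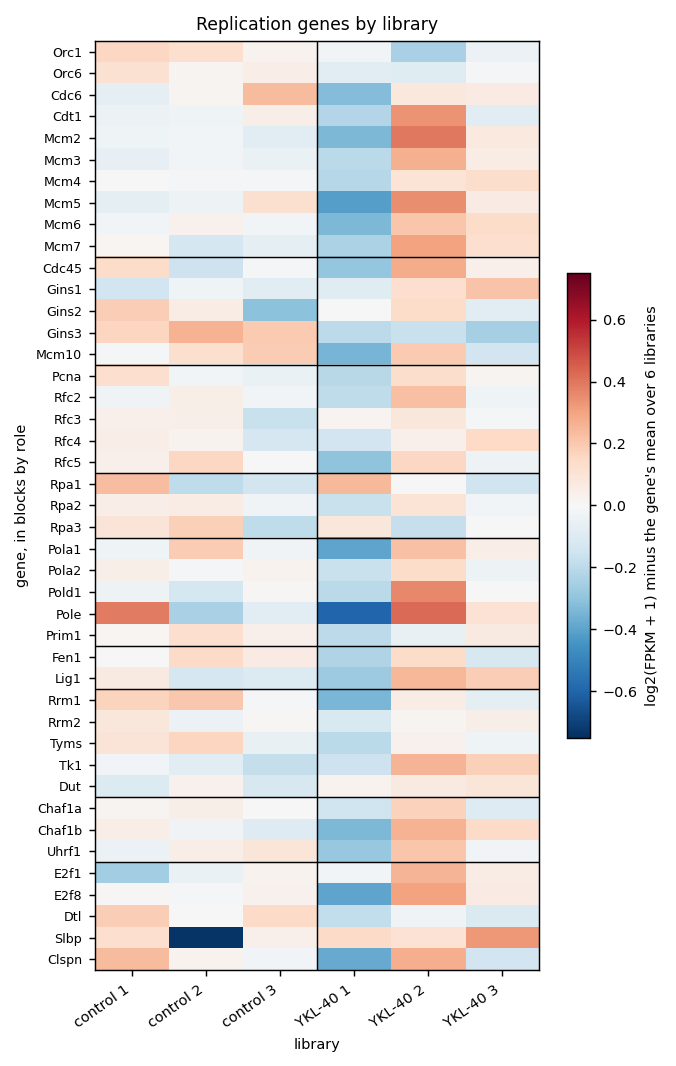
Level of each gene (rows, in blocks by role) in each library (columns) as log2(FPKM + 1) minus the gene's mean over the 6 libraries, blue for lower and red for higher. The column of YKL-40-labelled library 1 is mostly blue and that of library 2 mostly red, while Gins3 is lower in all 3 YKL-40-labelled libraries.

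Mitosis genes shared the low values of YKL-40-labelled library 1 while their highest values were spread over control 1, control 2 and YKL-40-labelled libraries 2 and 3. Of 26 mitosis genes, 17 (65.4%) were lowest in that library, 6 (23.1%) were highest in YKL-40-labelled library 2 and 10 (38.5%) in control 1. Of 13 tested G1 genes, 5 (38.5%) were lowest in YKL-40-labelled library 1, against 29.0% of all tested genes. Markers of other cells also differed between the 2 libraries. Library 1 had summed levels of 8883 FPKM for melanocyte markers, 319 for macrophage markers and 30.4 for T and NK cell markers, and library 2 had 11087, 387 and 11.1. The melanocyte sums were 9791, 10370 and 8847 FPKM in control libraries and 10541 in YKL-40-labelled library 3. The part of these cells in the spread was not tested.

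**Figure D5:**
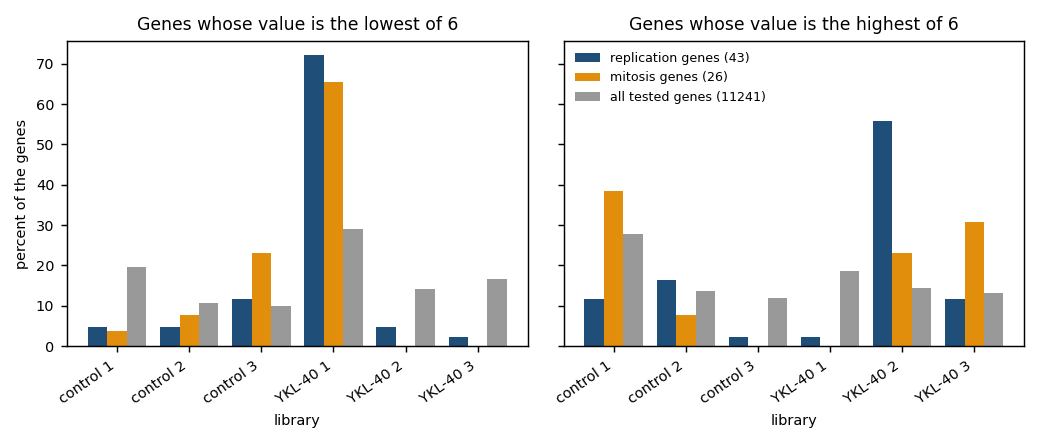
Percent of the 43 replication genes, 26 mitosis genes and all 11241 tested genes that have their lowest value (left) or highest value (right) in each library. YKL-40-labelled library 1 is lowest for 72.1% of the replication genes, and YKL-40-labelled library 2 is highest for 55.8%.

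Since library 1 and library 2 pulled in opposite directions, the sign of the small group difference rested on which of them was present. Without YKL-40-labelled library 1, 30 of the 43 differences were above 0, the median was 0.06, and 3 genes were higher at an unadjusted p under 0.05 in limma: Lig1 (0.27), Mcm7 (0.27) and Tk1 (0.31). In that fit 7.61% of all tested genes were higher and 6.83% lower at this level, so the count of 3 of the 43 is near the background. Without library 2, 11 were above 0, the median was -0.11, and Clspn (-0.34), Mcm10 (-0.34) and Rrm1 (-0.33) joined Gins3 (-0.43) as lower, 4 of the 43 against 11.3% lower and 9.47% higher among all tested genes. With either library left out, 0 of the 43 passed limma's test with p adjusted over all genes, which 0.0357% of all tested genes passed without library 1 and 2.12% without library 2. The groups then hold 2 and 3 libraries.

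Other genes of replication were examined in lists that do not include the 43. Of 34 further replication genes, 0 passed over all genes in limma, and 7 were lower and 0 higher at an unadjusted p under 0.05. Among all tested genes 0.436% passed, and 9.24% were lower and 8.71% higher at that level. These shares apply beside the count of each list below. The median difference of the 34 genes was -0.10, and 10 of the differences were above 0 (29.4%). For all tested genes the median was -0.04, and 42.2% were above 0. Orc5, a subunit of the origin recognition complex, had 26.8, 27.2 and 23.4 FPKM in control libraries and 19.1, 20.0 and 18.3 in those labelled YKL-40 (-0.41, adjusted p = 0.105). Orc2, of the same complex, had 18.0 ± 1.502 and 13.4 ± 1.45 FPKM (-0.40, adjusted p = 0.146). In Orc4 the groups also did not overlap, but control 3 and YKL-40-labelled library 1 both rounded to 35.6 FPKM (-0.17, unadjusted p = 0.152). Orc3 overlapped between the groups. These statements on Orc3 and Orc4 were chosen after their values were seen. Dbf4, the activator of the kinase that fires origins, had 34.8, 34.5 and 30.3 against 26.9, 15.3 and 15.4 FPKM (-0.80, adjusted p = 0.126). Mcm9, a relative of the ring subunits that acts in repair, had 7.40 ± 0.462 and 5.30 ± 1.20 FPKM (-0.43, adjusted p = 0.202).

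The 20 further genes of nucleotide supply had a median difference of -0.12, with 6 differences above 0 (30%). Of the 20, 0 passed over all genes in limma, and 1 was higher and 5 lower at an unadjusted p under 0.05. The higher one was Samhd1, an enzyme that degrades deoxynucleotides and is abundant in myeloid cells. It had 36.0, 38.3 and 36.4 FPKM in control libraries and 63.5, 53.1 and 85.1 in those labelled YKL-40 (0.82, adjusted p = 0.0845). The part of macrophages in this difference was not tested. Ppat, the first enzyme of purine synthesis, had 22.5 ± 1.39 and 17.3 ± 0.656 FPKM (-0.36, adjusted p = 0.115), Ctps, a CTP synthase, 15.8 ± 0.702 and 12.7 ± 1.14 FPKM (-0.29, adjusted p = 0.198) and Rrm2b, the p53-dependent subunit of ribonucleotide reductase, 12.6 ± 2.35 and 9.32 ± 1.11 FPKM (-0.39, adjusted p = 0.247).

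Among 16 further E2F and pocket protein genes, 3 differences were above 0 (18.75%), and the median was -0.07. In limma 0 of the 16 passed over all genes, and 3 were lower at an unadjusted p under 0.05. These were the E2F factors E2f3 (40.3 ± 3.78 and 31.6 ± 1.09 FPKM, -0.34) and E2f6 (13.9 ± 1.25 and 10.8 ± 0.274 FPKM, -0.34), each with an adjusted p of 0.150, and the pocket protein gene Rbl2 (-0.29, adjusted p = 0.228). Of 15 further S phase chromatin genes, 1 had a difference above 0 (6.67%), and the median was -0.16. In limma 0 of them passed over all genes, and Usp1, Nasp and Cdca7 were lower at an unadjusted p under 0.05. Usp1, which removes ubiquitin from the clamp, differed by -0.34 (adjusted p = 0.230) and Nasp, a histone chaperone, by -0.23 (adjusted p = 0.260). Cdca7, a partner of a chromatin remodeller, differed by -0.28 (adjusted p = 0.263). Of the 26 mitosis genes, 0 had an unadjusted p under 0.05, and the lowest p was that of Plk1, a mitotic kinase (0.27, adjusted p = 0.326). Among the 13 tested G1 genes 0 passed limma's test over all genes, and an unadjusted p under 0.05 was found for 3. Ccnd2, a D-type cyclin, had 331 ± 40.0 and 232 ± 6.07 FPKM (-0.50, adjusted p = 0.0912), the CDK inhibitor Cdkn2d 34.3 ± 3.28 and 44.6 ± 3.12 FPKM (0.37, adjusted p = 0.145) and Ccne2, the cyclin of the entry into S phase, 7.61 ± 0.639 and 5.29 ± 0.973 FPKM (-0.46, adjusted p = 0.163).

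Exons on the opposite strand also overlap 15.7% of the exon bases of E2f8, 15.4% of Rfc5, 14.4% of Slbp, 11.9% of Orc1, 6.17% of Lig1 and 5.76% of Tk1, and for Rfc5 the partner Wsb2 was at 80.0 FPKM.

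Some of the 43 genes start head to head with a neighbour. In GENCODE M21, 7 of them (16.3%) have a protein-coding gene that starts within 1000 bases in the opposite direction, against 6.79% of all protein-coding genes. The gene pairs are Orc1 with Prpf38a, Mcm4 with Prkdc, Gins1 with Abhd12, Rpa1 with Smyd4, Rpa3 with Umad1 and Gm45062, Pole with Pxmp2, and Dtl with Ints7. For Orc1 and Dtl, whose groups did not overlap, the partners Prpf38a and Ints7 differed by 0.05 and -0.01 (unadjusted p = 0.633 and 0.931).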

How the data were processed

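The deposited table holds 1 FPKM value per gene and library, made by the authors, for 6 tumours. Per the submitters' processing notes, bcl2fastq 2.0, HISAT2, StringTie, DESeq2 and limma were used with build mm10, in roles that are not given. The annotation and the way transcripts were combined are not given in the sources used here. Per the labels' protocols, 2 µg of RNA went into each library with a TruSeq RNA v2 kit, which does not mark strand. The scale of all differences is log2(FPKM + 1), on which changes of low genes are understated. The 11241 genes averaging 1 FPKM or more were fitted with limma 3.58.1 (R 4.3.3, variance trend), YKL-40-labelled against control, two-sided, with Benjamini-Hochberg adjustment over all of them and a threshold of 0.05. The procedure was tested on simulated data with log2 changes of 1 and 2 and independent noise for each gene. It recovered 79.6% and 97% of these changes, and 5.64% of its calls were false. Smaller changes, such as those of the 43 genes, were not simulated. No label states that the tumours grew in separate mice, and p-values then measure only the spread between these samples, which may be technical. The genes, lists and rules were chosen with earlier results of these data known. The naming rule takes all 43 genes, with values per library for the most abundant and lowest-p gene of each role, and from each other list the gene of lowest p and up to 3 more with an unadjusted p under 0.05. Other genes named with values, such as Mcm2, Tk1 and E2f1, were chosen after their values were seen. Promoters and positions came from RefSeq (GRCm38.p6) and overlaps from GENCODE M21, both of the mm10 assembly. Alternatives were other pseudocounts, filters, scalings and variance models, weights, a block, covariates and leaving out each library.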

Additional observations from a re-analysis of the deposited data

How the results depend on the processing

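With other pseudocounts, filters, scalings and variance models, 0 of the 43 genes passed over all genes in limma and Gins3 alone had an unadjusted p under 0.05. With array quality weights 1 gene passed, Gins3 (-0.46, adjusted p = 0.0130), and 4 had an unadjusted p under 0.05, in a fit that called 1111 of all genes against 49 in the fit reported above. With the melanocyte level as a covariate 2 did, and with 1 library left out 1 to 4. With a covariate for muscle markers the difference was 0.36 for Mcm5 and 0.093 for Mcm10, 14 signs changed, 28 of the 43 were above 0, the median was 0.09 and the highest difference was 0.82 (Slbp). That fit called 0 of all tested genes. Muscle marker sums did not overlap between the groups, so this covariate and the group are largely confounded. A sign change of an uncalled gene was taken as a reversal only where the difference exceeded 1 standard error in either fit. With 1 library left out the differences ran from -0.18 to 0.20 for Mcm5, -0.26 to 0.24 for Pole, -0.18 to 0.17 for E2f8, -0.14 to 0.14 for Cdt1 and -0.11 to 0.10 for Rfc2, in each case lowest without YKL-40-labelled library 2 and highest without library 1. The cause of these changes was not tested. Same-numbered libraries did not deviate together (correlations of -0.08, -0.19 and 0.00 across genes), so the numbers were not taken as pairs. With the replicate block 120 of all genes and 0 of the 43 passed, and the adjusted p of Gins3 was 0.167. The number of libraries limits the precision, and the depth is unknown.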
